A study of Mus musculus with 374 samples.

Results

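The iron genes described here are 10 genes chosen by name, of 19829 mouse genes in the count table: *Tfrc*, *Slc25a37*, *Slc11a2*, *Steap3*, *Fth1*, *Ftl1*, *Ireb2*, *Aco1*, *Slc40a1* and *Ncoa4*. Each symbol matched 1 row of the table. The study sorted single cells of the main blood lineages into a 384-well plate and measured them by CEL-seq2, a protocol that tags each captured messenger RNA near its 3′ end with a unique molecular identifier (UMI), so that a molecule is counted once. All cells came from 1 female C57BL/6 mouse, 10 to 13 weeks old, and no group carried a transgene or a treatment. The 96 erythroblasts were gated as Ter119+ CD44+ with mid or high forward scatter (FSC-A), the 96 granulocytes as Mac1+ Gr1+, the 95 progenitor/stem cells as Lin- Kit+ Sca1+ and the 44 B lymphocytes as B220+ with low FSC-A, all from bone marrow. The 43 T lymphocytes were CD3+ cells with low FSC-A from the thymus. Each population is therefore 1 sample, so no test between populations was made, and every interval given is a 95% interval for counting error only.

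Developing red cells need iron for haem. Iron bound to transferrin is taken up by the transferrin receptor (*Tfrc*) into endosomes, where it is reduced by *Steap3* and moved into the cytosol by *Slc11a2* (DMT1), and *Slc25a37* (mitoferrin-1) carries it into mitochondria. Surplus iron is stored in a shell of ferritin heavy (*Fth1*) and light (*Ftl1*) chains, *Ncoa4* takes ferritin to the lysosome for iron release, and *Slc40a1* (ferroportin) is the known exporter of iron from cells. The iron regulatory proteins made from *Aco1* and *Ireb2* bind short RNA hairpins, the iron-responsive elements. At the 5′ end of a transcript such a hairpin lets them block translation, and in the 3′ untranslated region (UTR) of *Tfrc* it lets them protect the transcript from decay, so part of this control would leave transcript counts as they are.

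The hairpins are printed to show which members carry this element and on which side of the coding sequence. The search in the sense strand of GENCODE M21 transcripts was for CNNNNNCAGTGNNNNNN, with the 5 bases before and after the 6-base loop CAGTGN required to pair, G-T pairs allowed and at most 1 mismatched pair. The loop is in capitals. *Tfrc* held 4 elements in its 3′ UTR (+ strand of GRCm38), and *Slc11a2* held 1 in its 3′ UTR, at chr15:100395159-100395175 (- strand), with 1 mismatched pair.
Tfrc, chr16:32631225-32631241: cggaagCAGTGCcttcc
Tfrc, chr16:32631604-32631620: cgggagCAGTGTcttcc
Tfrc, chr16:32631669-32631685: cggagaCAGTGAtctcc
Tfrc, chr16:32631716-32631732: cgggaaCAGTGTttccc
Slc11a2: cagagcCAGTGTgtttc
The other 3 elements were in 5′ UTRs, of *Fth1* at chr19:9982738-9982754 (+ strand), of *Ftl1* at chr7:45459785-45459801 (- strand) and of *Slc40a1* at chr1:45925471-45925487 (- strand).
Fth1: cttcaaCAGTGCttgaa
Ftl1: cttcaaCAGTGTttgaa
Slc40a1: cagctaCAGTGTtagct
So 5 of the 10 genes matched, 4 of them with every pair intact, where 10.7% of 21866 protein-coding genes had a match and 1.34% had one with no mismatched pair. The remaining members had no match in these transcripts. Of the other iron genes examined below, *Alas2* had a 5′ UTR match with every pair intact. A match is a description of letters, not proof of a working site.

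The wells held a median of 5289 UMIs on mouse genes, from 8 to 24033, and the population sums ran from 135808 in the B lymphocytes to 834812 in the progenitor/stem cells. Levels are given as CPM, the UMIs of a gene per 1000000 mouse UMIs of a population. Each population had a higher summed level of its own marker genes than any other population had, and 7 of 374 wells had a profile nearest to another population. Leaving those out changed none of the counts of members called between populations. The haemoglobin genes *Hbb-bs*, *Hbb-bt*, *Hba-a1* and *Hba-a2* took 23.5% of the erythroblast UMIs and 1.21% to 2.83% of those of the other populations, with UMIs in wells of all populations. Per well, this haemoglobin RNA was 3.97% of the erythroblast level in granulocytes, 5.04% in T lymphocytes, 5.34% in B lymphocytes and 6.52% in progenitor/stem cells, and other erythroblast genes are set beside these percentages below. The populations occupied their own rows of the plate, so that row and population cannot be told apart.

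The iron uptake genes were highest in the erythroblasts. *Tfrc* (ENSMUSG00000022797, chr16:32608920-32632794, GRCm38) gave 1188 UMIs in the erythroblasts, or 1782 CPM (1682 to 1886). Its level was 383 CPM in the B lymphocytes (286 to 502; 52 UMIs), 195 CPM in the T lymphocytes (138 to 266; 39 UMIs), 176 CPM in the progenitor/stem cells (149 to 207; 147 UMIs) and 114 CPM in the granulocytes (83.5 to 152; 46 UMIs). Only the T lymphocytes and the progenitor/stem cells were not separated in this order by the interval of their ratio. Erythroblasts exceeded the B lymphocytes 4.65-fold (3.53 to 6.27), the T lymphocytes 9.16-fold (6.66 to 12.9), the progenitor/stem cells 10.1-fold (8.52 to 12.1) and the granulocytes 15.6-fold (11.6 to 21.5). These folds moved with the processing. Over the alternatives the log2 ratio of *Tfrc* lay between 1.97 and 3.43 for the B lymphocytes and 3.07 and 4.88 for the T lymphocytes. It lay between 3.22 and 4.77 for the progenitor/stem cells and 3.79 and 7.90 for the granulocytes. The value of 7.90 came after subtracting, from each other population, its haemoglobin percentage of the erythroblast level. That took away all 46 granulocyte UMIs, and 3 were set in their place, so this value is set by that floor.

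*Slc25a37*, the mitochondrial iron importer of the erythroid lineage (ENSMUSG00000034248, chr14:69241848-69285112), gave 1908 CPM in the erythroblasts (1804 to 2016; 1272 UMIs). It stood at 295 CPM in the B lymphocytes (210 to 401; 40 UMIs), 178 CPM in the granulocytes (140 to 225; 72 UMIs), 151 CPM in the progenitor/stem cells (126 to 180; 126 UMIs) and 110 CPM in the T lymphocytes (68.8 to 166; 22 UMIs). The erythroblasts were 6.48-fold (4.73 to 9.11) above the B lymphocytes, 10.7-fold (8.43 to 13.8) above the granulocytes, 12.6-fold (10.5 to 15.3) above the progenitor/stem cells and 17.4-fold (11.4 to 27.8) above the T lymphocytes. Over the alternatives these log2 ratios of *Slc25a37* lay between 2.45 and 4.87, 3.32 and 5.16, 3.55 and 5.33, and 4.00 and 6.99, in the same order. The value of 6.99 came after the same subtraction, which took away all 22 T lymphocyte UMIs, and is set by the floor of 3 UMIs. The granulocytes and progenitor/stem cells, and the progenitor/stem cells and T lymphocytes, were not separated. Genes on the opposite strand overlap its exons and those of *Slc11a2* and *Ftl1* in the annotation. Whether strand was used in counting is not given in the sources used here.

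*Slc11a2*, the endosomal iron transporter (ENSMUSG00000023030, chr15:100387898-100425072), was a low-count gene, with 71 UMIs in 47 of 96 erythroblast wells, or 106 CPM (83.2 to 134). There were 5 UMIs in the B lymphocytes (36.8 CPM, 12.0 to 85.9), 6 in the T lymphocytes (29.9 CPM, 11.0 to 65.2), 5 in the progenitor/stem cells (5.99 CPM, 1.94 to 14.0) and 2 in the granulocytes (4.96 CPM, 0.600 to 17.9). The ratio of erythroblasts to granulocytes was 21.5 (5.73 to 181) and that to progenitor/stem cells 17.8 (7.27 to 56.4). That to the lymphocytes was smaller and less certain, at 3.56 (1.56 to 10.0) for T and 2.89 (1.18 to 9.18) for B. As the mean of the well CPM values, the last of these was 0.49 on the log2 scale, within 2-fold.

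*Steap3*, the endosomal iron reductase (ENSMUSG00000026389, chr1:120190757-120272705), gave 21 UMIs in 18 erythroblast wells, or 31.5 CPM (19.5 to 48.1). The other 4 populations together gave 4 UMIs, of which 1 was in the granulocytes, 1 in the T lymphocytes, 2 in the progenitor/stem cells and none in the B lymphocytes, where 3 UMIs would be 22.1 CPM. It was below the 50 UMIs set as the minimum for a comparison in all 4 comparisons, so no call was made for it.

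**Figure D1:**
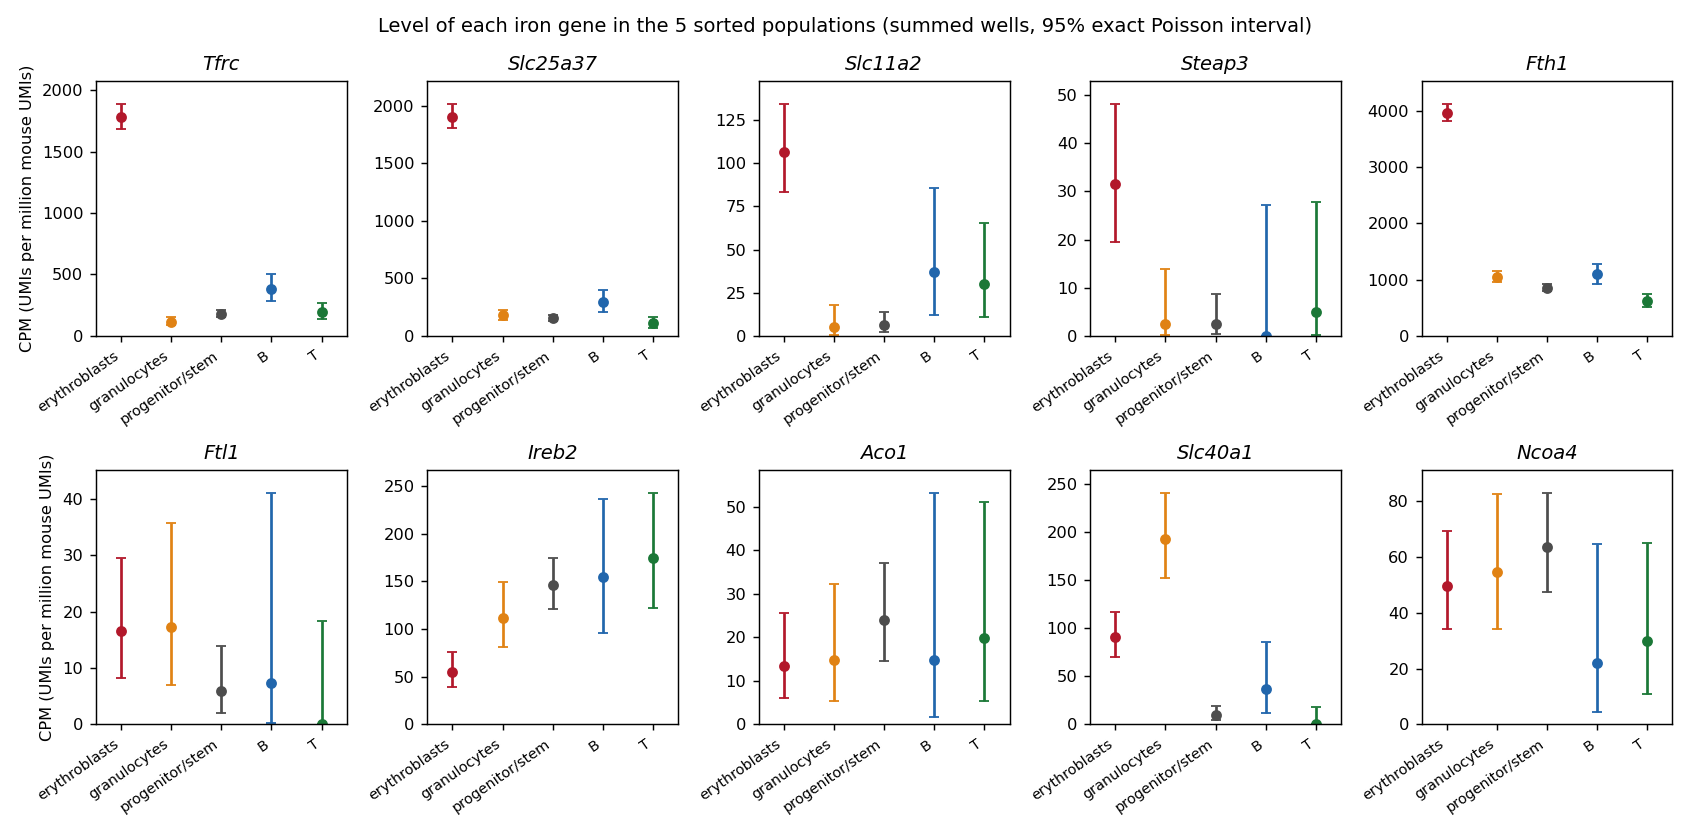
Level of each of the 10 iron genes in the 5 sorted populations, in CPM of the summed wells, with 95% exact Poisson intervals as bars and an axis from 0 for each gene. Tfrc, Slc25a37, Slc11a2, Steap3 and Fth1 are highest in the erythroblasts, Slc40a1 in the granulocytes, and Ireb2 is lowest in the erythroblasts.

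Of the storage genes, *Fth1*, the ferritin heavy chain (ENSMUSG00000024661, chr19:9980598-9985098), had UMIs in every erythroblast well and progenitor/stem cell well and in most wells of the other populations. Its level was 3966 CPM in the erythroblasts (3816 to 4120; 2644 UMIs). The B lymphocytes were at 1090 CPM (921 to 1280; 148 UMIs), the granulocytes at 1048 CPM (951 to 1153; 423 UMIs), the progenitor/stem cells at 853 CPM (791 to 918; 712 UMIs) and the T lymphocytes at 624 CPM (519 to 743; 125 UMIs). In this order only the B lymphocytes and the granulocytes were not separated. The excess of the erythroblasts was between 3.64-fold (3.08 to 4.32, over the B lymphocytes) and 6.36-fold (5.31 to 7.67, over the T lymphocytes). Within the last 400 bases of the *Fth1* transcripts, 15.2% to 16.9% of the 40-base words also occur in the processed pseudogenes *Gm6977* and *Fth-ps2*. These held 340 UMIs in the erythroblasts (510 CPM) and 69.9 to 125 CPM elsewhere, and reads split between such copies cannot be assigned from these counts.

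*Ftl1*, the ferritin light chain (ENSMUSG00000050708, chr7:45457944-45459884), gave 11 UMIs in the erythroblasts (16.5 CPM, 8.24 to 29.5), 7 in the granulocytes (17.3 CPM, 6.97 to 35.7), 5 in the progenitor/stem cells (5.99 CPM, 1.94 to 14.0), 1 in the B lymphocytes (7.36 CPM) and none in the T lymphocytes, where 3 UMIs would be 15.0 CPM. These counts are uncertain, since 81.7% of the 40-base words in the last 400 bases of its transcript recur in 12 other annotated genes, 7 of which are in the table. Summed with those 7, *Ftl1* gave 50 UMIs in the erythroblasts (75.0 CPM), 34 in the granulocytes (84.3 CPM), 27 in the progenitor/stem cells (32.3 CPM), 8 in the B lymphocytes (58.9 CPM) and 4 in the T lymphocytes (20.0 CPM). Neither version placed the erythroblasts above the granulocytes. The last 400 bases of the other 8 members shared no 40-base word with another annotated gene.

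*Ncoa4*, the receptor that takes ferritin to the lysosome (ENSMUSG00000056234, chr14:32159865-32179855), gave 33 UMIs in the erythroblasts (49.5 CPM, 34.1 to 69.5), 22 in the granulocytes (54.5 CPM, 34.2 to 82.5), 53 in the progenitor/stem cells (63.5 CPM, 47.6 to 83.0), 6 in the T lymphocytes (29.9 CPM, 11.0 to 65.2) and 3 in the B lymphocytes (22.1 CPM, 4.55 to 64.6). No neighbours in the order of these levels were separated. Per well, the progenitor/stem cells held 162% of the erythroblast UMIs (103% to 259%). The log2 ratio of erythroblasts to progenitor/stem cells was -0.36 (-1.03 to 0.30), and it changed sign with the scaling, to 0.50 with TMM factors.

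*Slc40a1*, the iron exporter (ENSMUSG00000025993, chr1:45908068-45926523), was highest in the granulocytes, at 193 CPM (153 to 241; 78 UMIs in 44 of 96 wells). The erythroblasts followed with 91.5 CPM (70.0 to 118; 61 UMIs in 43 of 96 wells). There were 8 UMIs in the progenitor/stem cells (9.58 CPM, 4.14 to 18.9), 5 in the B lymphocytes (36.8 CPM, 12.0 to 85.9), of which 4 were in 1 well, and 0 in the 43 T lymphocytes. That B lymphocyte well had a profile nearest to the granulocytes and the highest Gr1 fluorescence of its sort. A count of 0 allows up to 3 UMIs, or 15.0 CPM, in the T lymphocytes. With 3 UMIs in place of 0 the erythroblasts were 6.11-fold higher, and the interval of the ratio to the 0 UMIs counted began at 4.82-fold. They were 9.55-fold (4.55 to 23.1) above the progenitor/stem cells and 2.49-fold (1.01 to 7.93) above the B lymphocytes. Without the well with the most *Slc40a1* in each population, the B lymphocytes fell under 3 UMIs and were set to 3. The log2 ratio to them then moved from 1.31 to 1.90, a value set by that floor. No single granulocyte well held more than 4 UMIs and no erythroblast well more than 5.

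The granulocytes exceeded the erythroblasts by a log2 ratio of 1.08 (0.58 to 1.59), just past 2-fold, and were on the higher side under every scaling tried. With haemoglobin left out of the denominator the log2 ratio of erythroblasts to granulocytes was -0.71 and with counts per spike-in it was -0.24, both within 2-fold. Macrophages of the marrow are known for high *Slc40a1*. The 8 macrophage markers measured gave 13 UMIs in 6 granulocyte wells and 12 UMIs in 4 erythroblast wells, with *C1qa*, *C1qc* and *Axl* at 0 in the granulocytes and no marker at 0 in the erythroblasts. Without those wells *Slc40a1* stood at 211 CPM (166 to 265) in 90 granulocyte wells and 84.5 CPM (63.5 to 110) in 92 erythroblast wells. The 6 granulocyte wells themselves held 3 of the 78 UMIs, and the 4 erythroblast wells 7 of the 61. Marker counts this low cannot show that a well held no macrophage RNA. The part of macrophage RNA in *Slc40a1* was not tested.

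The regulators went the other way or did not separate. *Ireb2*, which encodes iron regulatory protein 2 (ENSMUSG00000032293, chr9:54863789-54912530), was lowest in the erythroblasts, at 55.5 CPM (39.1 to 76.5; 37 UMIs). It was 112 CPM in the granulocytes (81.3 to 149; 45 UMIs), 146 CPM in the progenitor/stem cells (121 to 174; 122 UMIs), 155 CPM in the B lymphocytes (95.7 to 236; 21 UMIs) and 175 CPM in the T lymphocytes (122 to 243; 35 UMIs). Only the step from the granulocytes down to the erythroblasts was separated. The log2 ratio of the erythroblasts was -1.01 (-1.67 to -0.35) to the granulocytes, -1.40 (-1.97 to -0.86) to the progenitor/stem cells, -1.48 (-2.29 to -0.63) to the B lymphocytes and -1.65 (-2.36 to -0.95) to the T lymphocytes. It was negative under every alternative and lay between -1.78 and -0.16, so that whether it passed 2-fold depended on the scaling.

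Counted per well and not as CPM, *Ireb2* gave 0.385 UMIs in an erythroblast well, 0.469 in a granulocyte well, 0.477 in a B lymphocyte well, 0.814 in a T lymphocyte well and 1.28 in a progenitor/stem cell well. On this scale the intervals of the granulocytes (77.0% to 193% of the erythroblast value) and of the B lymphocytes (68.9% to 217%) included 100%. Its paralogue *Aco1*, which encodes cytosolic aconitase and iron regulatory protein 1 (ENSMUSG00000028405, chr4:40143081-40198338), gave 9 UMIs in the erythroblasts (13.5 CPM), 6 in the granulocytes (14.9 CPM), 20 in the progenitor/stem cells (24.0 CPM), 2 in the B lymphocytes (14.7 CPM) and 4 in the T lymphocytes (20.0 CPM). No neighbours in the order of these levels were separated.

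**Figure D2:**
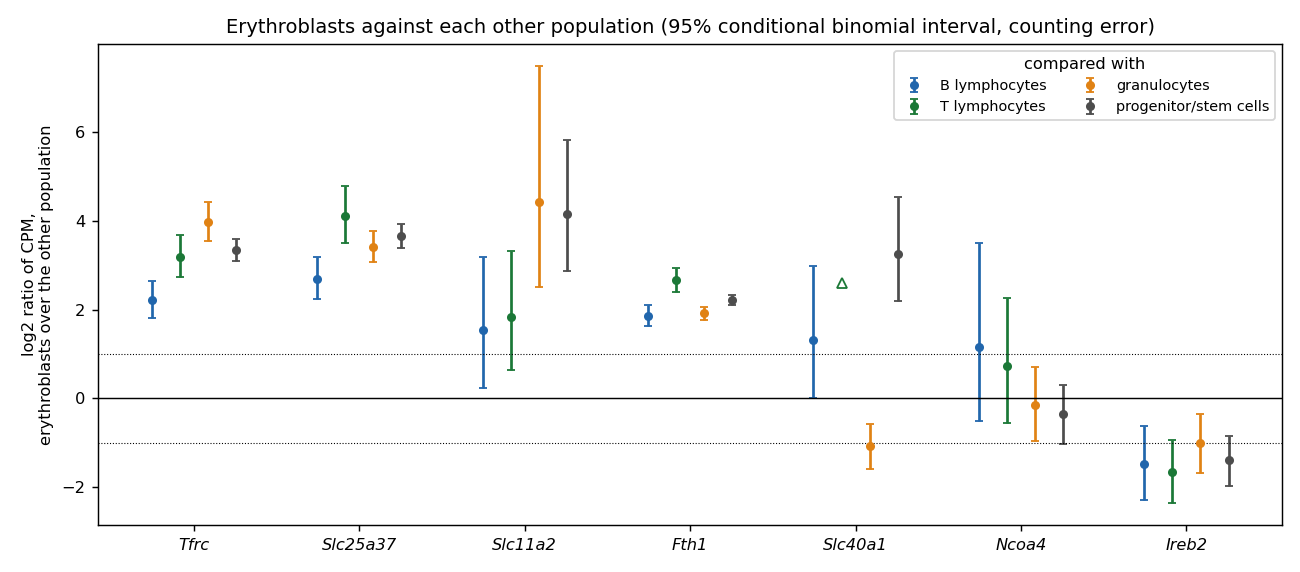
Log2 ratio of CPM, erythroblasts over each other population, for the 7 genes that reached 50 UMIs in at least 1 comparison, with 95% conditional binomial intervals. Dotted lines mark 2-fold, and the open triangle for Slc40a1 is the value against the T lymphocytes with their 0 UMIs set to 3. Tfrc, Slc25a37, Slc11a2 and Fth1 lie above 0, Slc40a1 lies below 0 against the granulocytes, and Ireb2 lies below 0 throughout.

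A member was counted as higher or lower when it was past 2-fold and held at least 50 UMIs in both populations together, with sums under 3 UMIs set to 3. Against the B lymphocytes 6 of the 10 members reached the minimum. Of these, 5 were higher in the erythroblasts and 1 was lower, where 33.8% of all 2324 genes tested were higher and 16.3% lower. Against the T lymphocytes the counts were again 5 and 1 of 6, beside 28.8% and 22.5% of 2609 genes. In both cases the higher ones were *Tfrc*, *Slc25a37*, *Slc11a2*, *Fth1* and *Slc40a1* and the lower one was *Ireb2*. Against the granulocytes 4 of 7 members were higher (40.2% of 3057 genes) and 2, *Ireb2* and *Slc40a1*, were lower (26.2%). Against the progenitor/stem cells 5 of 7 were higher (14.8% of 4792 genes) and 1, *Ireb2*, was lower (40.9%). *Steap3*, *Ftl1* and *Aco1* reached the minimum in no comparison. A member can reach the minimum through its erythroblast counts alone. *Slc11a2* (71 UMIs there) did so in all 4 comparisons, and *Slc40a1* (61 UMIs) in all but that with the granulocytes. The share of members counted as higher is therefore partly set by the minimum, which was also applied to all genes. The 4 comparisons share the erythroblast wells. The median log2 ratio of all genes tested was 0.35, 0.02, 0.55 and -0.73 in the same order, and that of all 10 members, whatever their counts and with sums under 3 set to 3, was 1.24, 1.45, 0.92 and 2.67.

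Set against haemoglobin, some of the low *Tfrc* and *Slc25a37* counts outside the erythroblasts were at the same percent of the erythroblast level as haemoglobin RNA in those wells. *Tfrc* per well in the granulocytes was 3.87% of its erythroblast level (2.82% to 5.20%), beside 3.97% for haemoglobin. *Slc25a37* per well in the T lymphocytes was 3.86% (2.41% to 5.87%), beside 5.04%. The *Tfrc* percentages of the progenitor/stem cells (12.5%, 10.5% to 14.9%), the B lymphocytes (9.55%, 7.09% to 12.6%) and the T lymphocytes (7.33%, 5.19% to 10.1%) had intervals above the haemoglobin percentage there. So did those of *Slc25a37* for the progenitor/stem cells (10.0%, 8.27% to 12.0%) and the granulocytes (5.66%, 4.4% to 7.18%), while that for the B lymphocytes (6.86%, 4.88% to 9.40%) included it. Other erythroid genes were not all at the haemoglobin percentage. *Alas2*, the erythroid enzyme of haem synthesis, was at 3.70% for the granulocytes, 4.04% for the B lymphocytes, 5.61% for the progenitor/stem cells and 6.47% for the T lymphocytes. *Slc4a1*, the anion exchanger of the red cell membrane, was at 2.80% to 4.63%. Its interval was below the haemoglobin percentage for the granulocytes (2.80%, 2.21% to 3.50%) and the progenitor/stem cells (4.63%, 3.86% to 5.52%). It included that percentage for the B and T lymphocytes. *Car2*, a carbonic anhydrase, was at 2.85% to 3.56% in all but the progenitor/stem cells, where it was at 22.1%. In the B lymphocytes, T lymphocytes and granulocytes its intervals were below the haemoglobin percentage. *Fth1* exceeded the haemoglobin percentage in all 4 populations, at 10.6% to 27.2%, and *Ireb2* was at 122% to 333%. The source of these molecules was not tested.

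**Figure D3:**
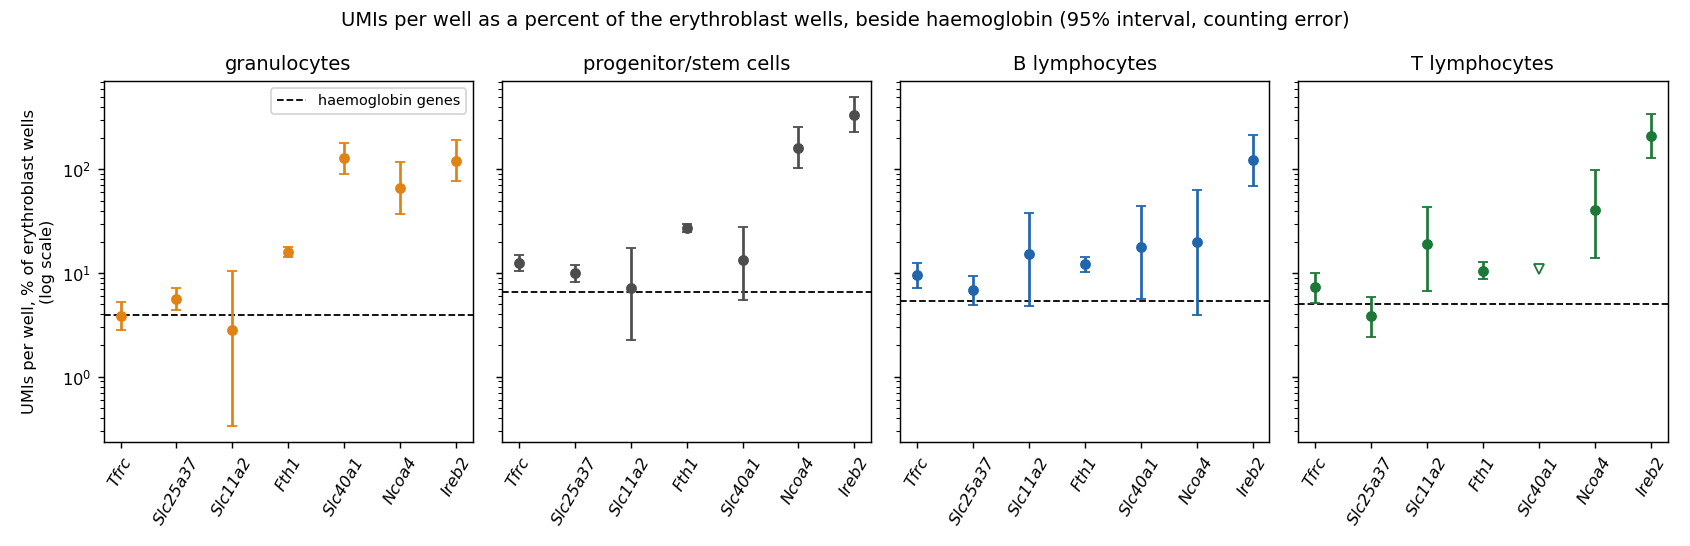
UMIs per well of 7 iron genes in each of the other 4 populations, as a percent of the UMIs per well in erythroblasts, on a log axis with 95% intervals. The dashed line is the same percent for the haemoglobin genes, and the open triangle for Slc40a1 in T lymphocytes is the value that 3 UMIs would give, since 0 were found. Tfrc lies on the line in granulocytes and Slc25a37 has an interval that spans it in T lymphocytes, while Fth1 lies above it in every population.

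Within the erythroblasts, *Tfrc*, *Slc25a37* and *Fth1* were each found in 96 of 96 wells. The lowest, median and highest UMI counts per well were 1, 11 and 44 for *Tfrc*, 2, 11 and 37 for *Slc25a37* and 1, 23 and 90 for *Fth1*. In the 95 wells with at least 1000 mouse UMIs, the 10th and 90th percentiles were 916 and 2583 CPM for *Tfrc*, 733 and 3960 CPM for *Slc25a37* and 1913 and 5855 CPM for *Fth1*. The spread of the counts around an equal share of each well was 1.74 times that of Poisson counting for *Tfrc*, 3.86 times for *Fth1* and 5.66 times for *Slc25a37*. *Slc25a37* thus varied among the erythroblasts more than *Tfrc* did. For the other members it lay between 0.634 times (*Steap3*) and 1.23 times (*Ftl1*). Their means were only 0.0938 to 0.740 UMIs a well. Counts so low can show little beyond counting noise, so their variation among the erythroblasts cannot be read from these values. By plate row the level of *Tfrc* ran from 1661 to 1835 CPM, that of *Slc25a37* from 1780 to 2079 CPM and that of *Fth1* from 3522 to 4193 CPM.

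Across the 96 erythroblast wells, as a share of the UMIs not on haemoglobin genes, *Slc25a37* went with the haemoglobin percentage of the well (Pearson r = 0.76, Spearman rho = 0.80). *Tfrc* did so less closely (r = 0.50, rho = 0.46) and *Fth1* hardly (r = 0.06, rho = 0.05). *Tfrc* and *Slc25a37* went together (r = 0.61, rho = 0.55), and *Fth1* went with neither (r = -0.12 and -0.13). The haemoglobin percentage itself was lower in wells with more mouse UMIs (r = -0.63, rho = -0.66), and so was *Slc25a37* (r = -0.46, rho = -0.56). All wells share 1 mouse and 1 plate, and these coefficients describe them only.

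**Figure D4:**
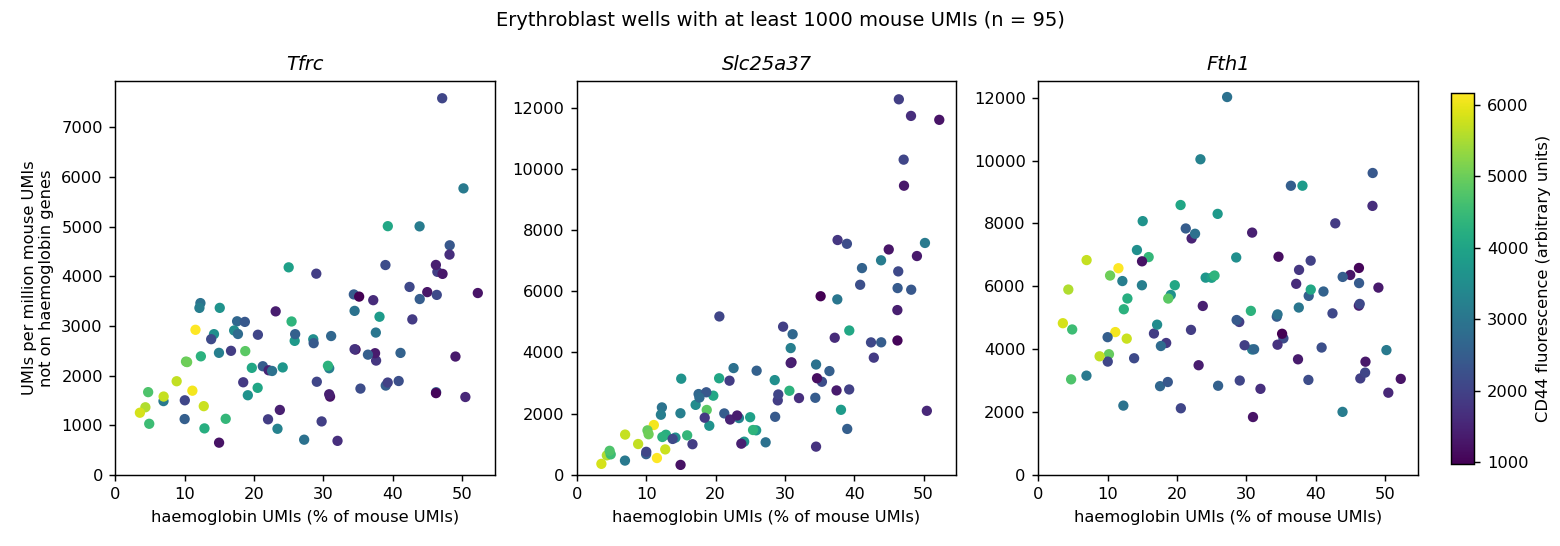
Each point is 1 of the 95 erythroblast wells with at least 1000 mouse UMIs, with the percent of its UMIs on haemoglobin genes on the x axis, the level of Tfrc, Slc25a37 or Fth1 as CPM of the UMIs not on haemoglobin genes on the y axis, and the CD44 fluorescence recorded at the sort as colour. Slc25a37 is higher in wells with more haemoglobin, which are also wells of low CD44, and Fth1 has no visible trend.

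The fluorescence recorded for each sorted cell gives an order of the erythroblasts that does not use the counts. CD44 is known to be lost, and haemoglobin to build up, as erythroblasts mature. In the 32 wells with the lowest, the 32 with intermediate and the 32 with the highest CD44, haemoglobin took 33.1%, 26.7% and 15.3% of the UMIs. *Slc25a37* was at 2572 CPM (2336 to 2825), 2206 CPM (2013 to 2412) and 1272 CPM (1143 to 1412). The log2 ratio of high to low CD44 was -1.02 (-1.22 to -0.81), past 2-fold, where 2.62% of 1335 genes were that much lower and 27.0% that much higher. *Fth1* went the opposite way, at 3317 CPM (3048 to 3603), 3396 CPM (3156 to 3649) and 4805 CPM (4551 to 5070), a log2 ratio of 0.53 (0.39 to 0.68). *Tfrc* had no steady order, at 1590, 2004 and 1724 CPM, with a log2 ratio of 0.12 (-0.10 to 0.34).

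Haemoglobin is part of the denominator, so the ratios were also taken without it. Among the UMIs not on haemoglobin genes the log2 ratio of high to low CD44 was -1.36 for *Slc25a37* (-1.56 to -1.15) and 0.19 for *Fth1* (0.05 to 0.34), and that of *Tfrc* changed sign to -0.23 (-0.44 to -0.00468). These intervals leave out the spread between wells, which was above Poisson for each of these genes. Across the 96 wells the Pearson correlation of this share with CD44 was -0.44 for *Slc25a37*, 0.11 for *Fth1* and -0.19 for *Tfrc*. With haemoglobin in the denominator, the ratio of *Slc25a37* (-1.02) is no longer past 2-fold under 2 alternatives. These are dividing the wells into a lower and an upper set of 48, and averaging the CPM values of the wells. Per well, *Slc25a37* gave 13.6 UMIs at low and 11.1 at high CD44, *Tfrc* 8.41 and 15.0, and *Fth1* 17.5 and 41.9.

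Ter119, whose fluorescence is higher in wells with more haemoglobin (r = 0.75), gave the opposite order of CPM for *Slc25a37* and *Fth1*, but not for *Tfrc*. From the 32 wells with the lowest to the 32 with the highest Ter119, *Slc25a37* was at 1377, 1674 and 2988 CPM, a log2 ratio of 1.12 (0.92 to 1.31) and the only one of 3 members past 2-fold, beside 6.66% of 1291 genes higher and 37.2% lower. *Tfrc* was at 1620, 1828 and 1971 CPM (log2 ratio 0.28, 0.08 to 0.49) and *Fth1* at 4348, 4376 and 2899 CPM (-0.59, -0.74 to -0.44). Without haemoglobin in the denominator the log2 ratio of high to low Ter119 was -0.13 for *Fth1* (-0.28 to 0.02) and 1.57 for *Slc25a37* (1.38 to 1.76). For *Tfrc* it was 0.73 (0.53 to 0.94), opposite in sign to its ratio with CD44 on that scale (-0.23). With FSC-A, a measure of cell size, no member with 50 UMIs was past 2-fold, beside 23.9% of 1401 genes higher and 1.64% lower, and the log2 ratio of high to low was -0.71 for *Slc25a37* (-0.92 to -0.50), 0.43 for *Fth1* (0.30 to 0.58) and 0.06 for *Tfrc* (-0.15 to 0.27).

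**Figure D5:**
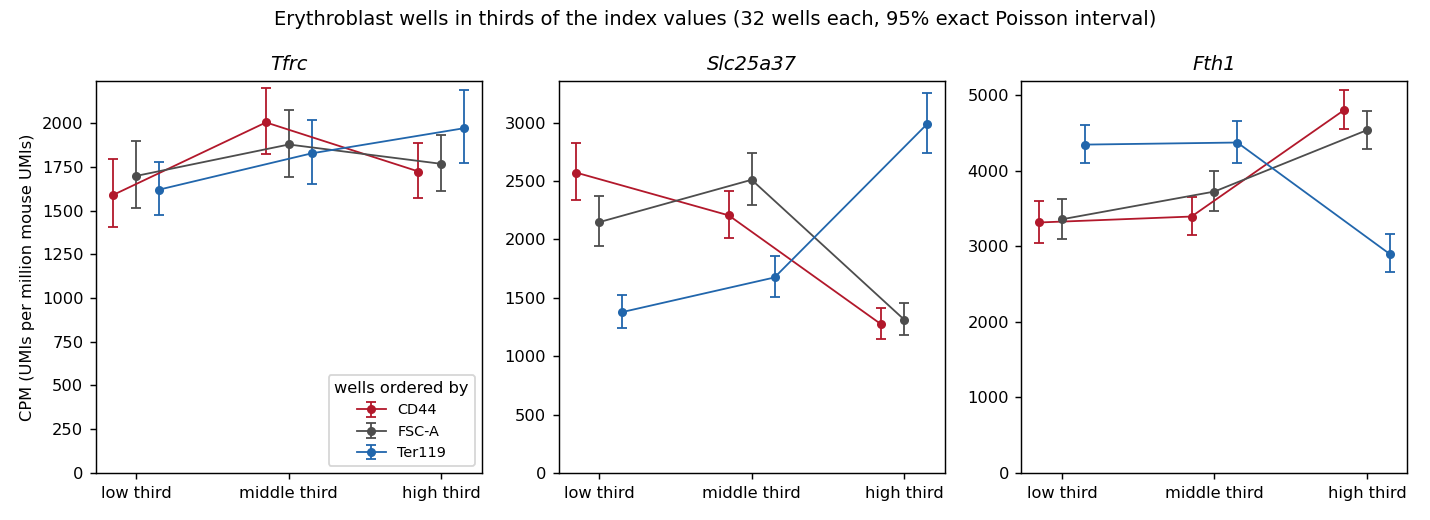
CPM of Tfrc, Slc25a37 and Fth1 in erythroblast wells ordered by CD44, FSC-A or Ter119 and divided into 3 sets of 32 wells, with 95% exact Poisson intervals. Slc25a37 is lowest at high CD44 (1272 CPM) and highest at high Ter119 (2988 CPM), and Fth1 is highest at high CD44 (4805 CPM).

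The members with fewer counts gave wide intervals in this order. *Ncoa4* had 16 UMIs at high and 6 at low Ter119, a log2 ratio of 2.01 (0.58 to 3.65). *Steap3* had 1 and 12 (-2.99, -8.41 to -0.24), and with haemoglobin left out of the denominator its interval included 0 (-7.96 to 0.22). By CD44 it had 13 at high against 2 at low (1.98, -0.17 to 5.17), an interval that included 0. *Slc40a1* had 33 UMIs at high and 9 at low FSC-A (1.28, 0.18 to 2.53), and with haemoglobin left out of the denominator its interval included 0 (-0.06 to 2.28). None of these reached 50 UMIs, so none was called.

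The members were set beside other genes of iron handling, a list of 50 of which 37 are reported and 13 are not analysed here. Against the B lymphocytes 8 of the 12 that reached the minimum were higher in the erythroblasts (33.8% of all genes tested) and 1 was lower (16.3%). Against the T lymphocytes 8 of 12 were higher (28.8%) and 2 lower (22.5%). Against the granulocytes 8 of 14 were higher (40.2%) and 3 lower (26.2%). Against the progenitor/stem cells 6 of 19 were higher (14.8%) and 2 lower (40.9%). A gene can reach the minimum through its erythroblast counts alone. The median log2 ratio of all 37, whatever their counts and with sums under 3 set to 3, was -0.71, -0.32, -0.72 and -0.20 in the same order. A list gene with 0 UMIs in both populations takes a value set by the 2 population sums alone. That value is -2.30, -1.73, -0.72 and 0.32 in the same order. The whole-list medians are thus partly set by depth and the floor. The medians over all genes given above are of genes with at least 50 UMIs. That of the list genes that reached the minimum was 2.09, 2.01, 1.48 and -0.20. Its sign differed from that of the whole list in the first 3 comparisons, a difference that the floor and the minimum can make. *Abcb10*, a mitochondrial transporter known to associate with mitoferrin-1, stood at 879 CPM in the erythroblasts (586 UMIs) and 7.36 to 32.2 CPM elsewhere. The iron-sulfur cluster genes *Glrx5* (774 CPM), *Isca1* (231 CPM) and *Isca2* (196 CPM) were higher in all 4 comparisons, as were *Alas2* (1864 CPM) and the porphyrin exporter *Abcg2* (282 CPM). *Slc48a1*, a haem transporter, was at 159 CPM and was higher in all but that with the progenitor/stem cells.

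*Snx3*, which serves the recycling of the transferrin receptor, was past 2-fold above the B lymphocytes (298 against 88.4 CPM) and T lymphocytes (140 CPM). *Pcbp1*, an iron chaperone, was so above the granulocytes, at 334 against 139 CPM. The lower genes were of 2 kinds. *Lcn2* and *Ltf*, which bind bacterial siderophores and iron, and *Hp*, which binds haemoglobin, are secretory products of granulocytes and were far higher there (8508, 7051 and 1093 CPM, against 270, 63.0 and 9.00 CPM in the erythroblasts). *Lcn2* was also past 2-fold lower than in both lymphocyte populations, and *Ltf* than in the T lymphocytes, whose wells held 8 granulocyte markers, both of these included, at 6693 CPM (B) and 3648 CPM (T) in all, beside 1720 CPM in the erythroblasts. In the B lymphocytes 1 well held much of this, the same well that held 4 *Slc40a1* UMIs. Without that well the markers there stood at 2971 CPM. The log2 ratio of *Lcn2* moved from -1.13 (-1.51 to -0.73) to -0.55 (-1.01 to -0.08), within 2-fold. No list gene with at least 50 UMIs was then past 2-fold lower than in the B lymphocytes. Without the T lymphocyte well with the most of these markers, *Lcn2* (-1.00, just past 2-fold) and *Ltf* (-1.21) were still lower. The part of granulocyte RNA in these ratios was not tested. Below the progenitor/stem cells were *Slc25a28* (mitoferrin-2, the widely expressed form) and the haem oxygenase gene *Hmox2*. They had 16 against 65 UMIs (24.0 and 77.9 CPM) and 6 against 86 UMIs (9.00 and 103 CPM). Both were under 50 UMIs in the other comparisons, so no call was made there. For *Slc25a28* the log2 ratios to the B lymphocytes, T lymphocytes and granulocytes were -2.10, -0.90 and -1.53. For *Hmox2* they were -3.30, -2.61 and -2.66.

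The genes with the most similar pattern over the 5 populations were named for the 4 members with at least 200 UMIs, by the smallest distance between centred log2(CPM + 10) values among 1913 genes. For *Tfrc* they were *Slc16a1* (distance 0.49), *Ces2g* (0.55) and *Mki67* (0.62). For *Slc25a37* they were *March8* (0.24), *Birc5* (0.42) and *Spire1* (0.42), for *Fth1* *Eif2ak1* (0.30), *Gid8* (0.33) and its own pseudogene *Gm6977* (0.35), and for *Ireb2* *Sub1* (0.17), *Nktr* (0.28) and *Eif4ebp2* (0.29). *March8*, whose product is known to ubiquitinate the transferrin receptor, was at 354 CPM in the erythroblasts and 15.0 to 51.5 CPM elsewhere, and *Eif2ak1*, the haem-regulated kinase of translation, was at 570 CPM and 74.9 to 177 CPM.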

How the data were processed

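The deposited values are whole UMI counts for each gene in each well, not normalized, which the authors made with scPipe. It trims barcodes and UMIs, aligns reads (by default with Rsubread), assigns them to exons, demultiplexes wells by designed barcodes and collapses UMIs. The sources used here do not give the build, annotation or strand setting. Columns were tied to samples by well name, and 9 columns with no matching sample were not used. Symbols, coordinates and transcripts came from GENCODE M21 (GRCm38), and the authors may have used another build. ERCC controls were left out of CPM. The members and lists were chosen with earlier results of these data known. Some genes of the iron list are not reported here, and, once results were known, its counts and medians were recomputed to leave those genes out. The text names all members, list genes past 2-fold with at least 50 UMIs, ferritin copies, and for each member with at least 200 UMIs the 3 genes of most similar pattern. Intervals are exact Poisson for sums, exact binomial for shares and exact conditional binomial for ratios, at 95%. Wells were not filtered, and doublets were not called, since 1 cell was sorted per well. The intervals and calls were run on simulated Poisson sums. These lack the extra spread between wells seen for *Tfrc*, *Fth1* and *Slc25a37*, so they check the computation only. Python 3.11.15 with numpy 2.4.6, pandas 2.3.3, scipy 1.17.1 and matplotlib 3.10.9 was used, with edgeR 4.0.16 (TMM), DESeq2 1.42.0 (size factors) and scran 1.30.0 in R 4.3.3 for alternatives. The first 19 alternatives concerned scaling, weighting, wells, carry-over and thresholds, and 3 more, on scaling and wells, were added after seeing the data.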

Additional observations from a re-analysis of the deposited data

How the results depend on the processing

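Each count of members past 2-fold higher in the erythroblasts stayed within 1.5 times its value under every alternative (4 to 7 members). The counts past 2-fold lower did not. Against the B lymphocytes and the T lymphocytes the lower count was 0 in place of 1 with TMM factors, DESeq2 size factors, scran size factors (also when summed per population, an alternative added after seeing the data) and counts per ERCC control. Against the progenitor/stem cells it was 0 with the same settings except ERCC. Against the granulocytes it was 0 in place of 2 without haemoglobin in the denominator, with TMM, with ERCC and with summed scran factors. It was 1 with DESeq2, with scran per well, with averaged well CPM, with carry-over subtracted and without the wells holding a macrophage marker UMI, the last also added later. With CD44, the lower count was 0 in place of 1 with 2 sets of 48 wells and with averaged well CPM. Of the single log2 ratios, 433 stayed within their counting interval, 87 moved outside it and no called one changed sign. The scalings moved the median log2 ratio of all genes, for example by 0.76 (B), 0.84 (T), 0.09 (granulocytes) and 0.86 (progenitor/stem cells) with TMM, which took the share of calls that were higher from 67.5% to 85.8%, 56.1% to 79.0%, 60.5% to 62.9% and 26.5% to 53.6%. No paired analysis was possible because each population is 1 sample and the labels give the wells no replicate numbers. The planned comparison of protein sequences was not run. Depth limits *Steap3*, *Ftl1*, *Aco1*, *Slc11a2* and *Ncoa4* most, with 24 to 117 UMIs over all wells.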
